A study of Mus musculus with 7 samples.

Results

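The genes that encode the proteins of the cytosolic ribosome were examined in chromatin data from mouse muscle stem cells (MuSCs). Members were the protein-coding autosomal genes whose symbol is Rpl or Rps followed by a number and optionally a, x, p or l, together with Rplp0 to Rplp2 and Rpsa, and the kinase genes of the Rps6k family were excluded. The rule found 76 genes among 20807 autosomal protein-coding genes of the GENCODE M21 annotation, 46 for the large subunit and 30 for the small subunit. It used names only and none of the measured values.

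Chromatin accessibility was measured by ATAC-seq, in which a transposase cuts open DNA, in 2 Control and 2 TRF2KO libraries of MuSCs from hind limb muscle at the time point named 0 hr, without injury. Binding of TRF2, the telomere protein encoded by Terf2, was measured by CUT&Tag, in which an antibody directs the transposase, in 2 TRF2 libraries and 1 library with rabbit IgG, from tibialis anterior MuSCs of wild-type genotype taken 3 days after notexin, a snake toxin that destroys muscle fibres. The methods of the study instead give a shorter interval after injury for CUT&Tag, add gastrocnemius muscle, and describe those mice as carrying Pax7-driven Cre and a TdTomato reporter. In the TRF2KO mice, per the methods, floxed Terf2 alleles were deleted by a tamoxifen-inducible Cre made from the Pax7 locus, so deletion is limited to cells that express Pax7. TRF2KO libraries were identified by title, since their genotype entry names the wild type. In the general methods, MuSCs were sorted as negative for CD45, CD31, CD11b and Sca1, with α7-integrin and VCAM1 or CD34 as positive markers. For the CUT&Tag cells the methods cite a separate isolation protocol. Nothing in the labels says that libraries came from separate animals, so errors and p-values describe the spread between libraries, which may be technical.

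The ATAC lists held 84102 to 100521 MACS peaks, the TRF2 lists 12290 and 15479, and the IgG list 656. The Control 2 list was the longest, and its background pileup of 4.56 fragments stood above the 3.35 to 3.41 of the other 3 ATAC libraries. The ATAC peak at the start of Terf2, the targeted gene, had a fold of 54.3 and 48.4 in Control and of 21.5 and 18.6 in TRF2KO, so the genotypes did not overlap there. That value is accessibility near the start and not a measure of the deleted part. All 10 listed MuSC marker genes had a start peak in all 4 ATAC libraries, while Ptprc and Itgam, which encode CD45 and CD11b, had none in any. Pecam1, which encodes CD31, had a weak peak in each, with folds of 3.96 to 7.09, and Ly6a, which encodes Sca1, had one in TRF2KO 1 only. Of 8 markers of other muscle cells, 4 had a start peak in all 4 libraries and 2 in none. The 4 were Myh1 (folds of 27.4 to 35.2), Ckm (12.5 to 19.3), Pdgfra (10.1 to 15.4) and Kdr (5.76 to 7.49). Folds of the 10 MuSC markers ran from 20.2 at Cd34 to 191 at Cdh15, and Myh1 stood above Vcam1 (21.7 to 23.8).

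Ribosomal proteins assemble with ribosomal RNA in the nucleolus, and each ribosome carries a single copy of most of them, so their genes are expressed together and strongly in nearly every cell. Their promoters are compact, usually lack a TATA box, and often start transcription within a run of pyrimidines. The transcript then opens with a terminal oligopyrimidine (TOP) tract, through which mTOR signalling controls its translation. MuSCs at rest make little protein, and ribosome production rises when they leave quiescence. TRF2 binds the telomeric repeat and has been studied at G-quadruplexes (G4s), four-stranded folds of G-rich DNA, which is the reason for asking where its peaks lie at these promoters.

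The following windows of the GRCm38 reference show the first base of the principal coding transcript, which is the 16th of 30 bases, on the strand of the gene. They are printed because a pyrimidine run at the start is what the count after them rests on, and capitals mark a run of at least 8 C or T bases that touches the 10 bases on either side of the start. The first 15 bases lie upstream of the transcript and the others open its first exon. The first 6 genes hold such a run and the last 3 do not.
Rpl4, chr9:64173360-64173389: agtgacaagTCTTTCCTTTTCCTgtgggag
Rpl37a, chr1:72711275-72711304: gcattgcgTCCCTTCCTCTTCggacttggg
Rpl37, chr15:5116630-5116659: tggcgggggtgCTTTCTCTTCCggtctctt
Rplp1, chr9:61914528-61914557: cgcgcaggcgtatatgaTCTTTTCCTCagc
Rpl5, chr5:107900487-107900516: gcatcttgaggcctacagccaCTCTTTCTC
Rpsa, chr9:120127674-120127703: tctgcgcgtgcgccagaggCTTTTTCCgga
Rps19, chr7:24884699-24884728: cggggccacggggccgggctttctggcccc
Rps21, chr2:180257362-180257391: cttaccgaggacccgccctcctgcccaata
Rps23, chr13:90922943-90922972: tagccttgtcatttgcctgaaaaggaaata

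Counted this way, 32 of 76 members (42.1%) had a pyrimidine run at the principal start, against 13.7% of all autosomal protein-coding genes and 12.9% of those with an ATAC peak there in all 4 libraries. At the first base of the gene record, which can belong to a minor upstream transcript, the count was 26 of 76 (34.2%) against 14.1%. When any annotated transcript start was allowed it was 66 of 76 (86.8%) against 37.8%. Among the members with a run, the mean Control percentile of the ATAC peak, defined below, had a median of 94.3%, and among those without one it was 94.6%. A TRF2 peak in both libraries was present at 10 of 32 members with a run and at 14 of 44 without.

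Other short motifs were searched in the 300 bases from 250 before to 50 after the principal start. CCGGAA, the core bound by ETS factors such as GABPA, was found on either strand in 36 of 76 members (47.4%), against 18.5% of all autosomal protein-coding starts and 26.7% of the open ones. CTTTCC on the strand of the gene, the core of the TCT initiator that ribosomal protein genes use, was found in 25 members (32.9%) against 14.2% of open starts. It can lie inside the pyrimidine run, as in the Rpl4 window above, so the counts can share letters. The GC box GGGCGG, bound by SP1, was in 37 members (48.7%), against 46.0% of all and 65.8% of open starts. The TATAAA letters on the strand of the gene were in 3 members (3.95%), against 8.94% of all and 4.397% of open starts. CCAAT was in 21 members (27.6%), against 37.7% of all and 37.4% of open starts, and the telomeric unit TTAGGG in 7 (9.21%), against 10.3% and 10.1%. These matches are letters in a window and do not show a bound factor.

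Accessibility was read as a MACS peak, that is, a region with more fragments than background, within 1 kb of the start of the gene record. In each ATAC library the background solved from fold and p was nearly constant across peaks, so it was not local there. The fold of a peak is the pileup at its summit over background, and its percentile is the percent of all peaks of that library with a fold at or below it. Of 76 members, 71 (93.4%, 95% exact binomial interval 85.3 to 97.8) had a peak in all 4 ATAC libraries, against 61.9% of all autosomal protein-coding genes. Taken alone, Control 1, TRF2KO 1 and TRF2KO 2 each had a peak at 71 members and Control 2 at 72, and the background was 64.3% of all genes in Control 1, 65.8% in Control 2 and 64.5% in each TRF2KO library. These peaks were tall. Over the 71 members the Control libraries had median folds of 74.6 and 65.5 and the TRF2KO libraries of 77.5 and 69.0, while over all genes with 4 peaks medians of 43.4 to 51.7 were found. Median percentiles of members were 93.9% and 94.8% for Control and 93.9% and 93.3% for TRF2KO, against 88.5% to 90.1% over all genes with 4 peaks. A mean Control percentile of at least 90 was reached by 57 of 71 members (80.3%) against 47.6% of those genes, and one of at least 95 by 30 of 71 (42.3%) against 28.5%. The large subunit genes (42 with 4 peaks) had a median mean Control percentile of 94.1% and the small subunit genes (29) one of 94.6%.

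The members without a peak in all 4 libraries were Rpl3l, Rpl10l, Rpl39l, Rpl17 and Rps2. Rpl3l, the striated muscle paralogue of Rpl3, had no ATAC peak within 1 kb of any annotated transcript start in any library. The same held for Rpl10l and Rpl39l, paralogues known from the testis. Rpl17 and Rps2 had annotated starts beyond 1 kb of the gene record that were open. At the principal start, Rps2, which encodes uS5 of the small subunit, had folds of 140 and 119 in Control and 147 and 138 in TRF2KO. Rpl17 had folds of 40.0 and 36.9 in Control and 53.1 and 44.3 in TRF2KO, and both TRF2KO folds were higher. By percentile, defined above, its genotypes overlapped, at 85.6 and 88.0 in Control and 89.4 and 87.9 in TRF2KO. Counted at the principal start, the number open in all 4 libraries was 73 of 76 (96.1%) against 62.1% of all genes, and only the 3 tissue-restricted paralogues lacked a peak. Rps27l, the other paralogue followed here, was open like its relatives, with folds of 82.6 and 69.8 in Control and 79.1 and 84.7 in TRF2KO. Sequence copies did not show the same peaks: of 259 autosomal pseudogenes named Rpl or Rps with the ending -ps, 15 (5.79%) had an ATAC start peak in all 4 libraries, 231 had one in none, and no such pseudogene had a TRF2 peak in both TRF2 libraries. Near-identical copies may also have lost reads when the authors removed reads that align to several places.

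**Figure D1:**
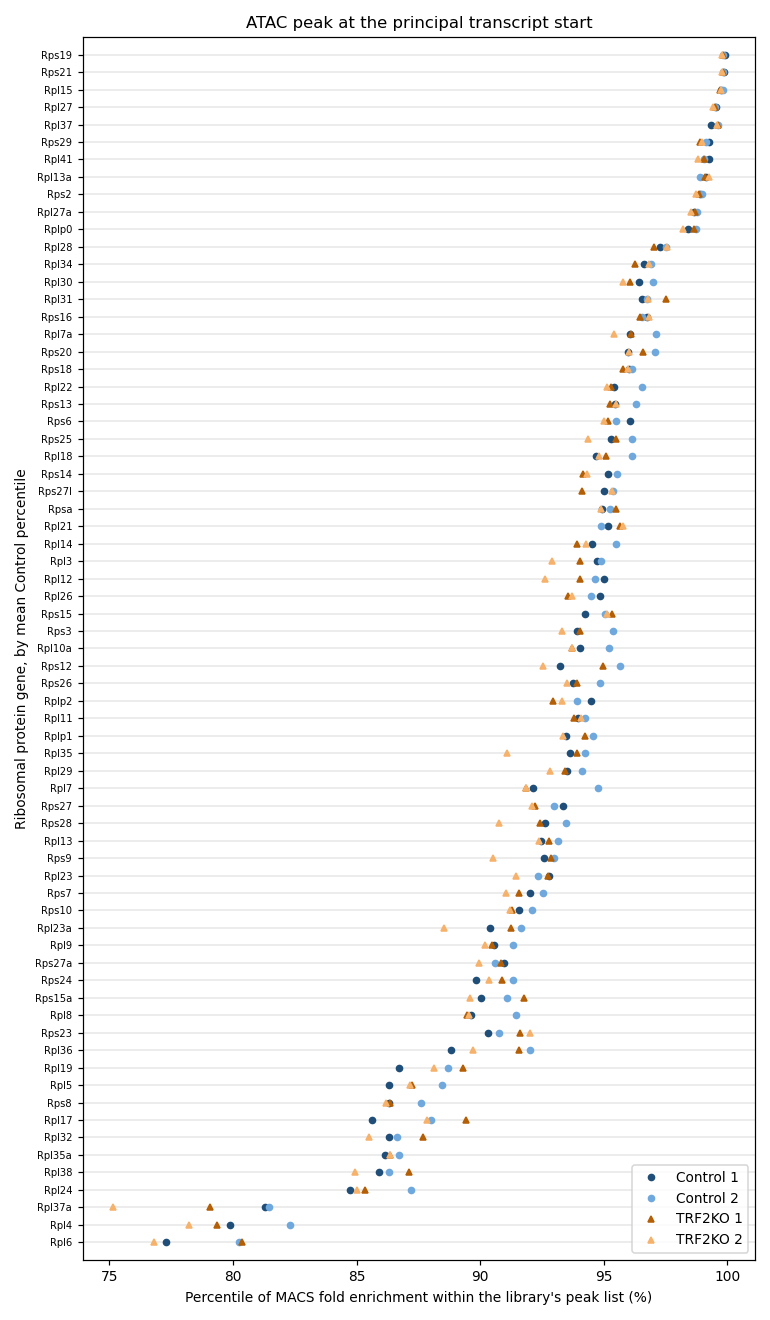
Fold percentile (horizontal axis, %) of the ATAC peak within 1 kb of the principal transcript start in each of the 2 Control (circles) and 2 TRF2KO (triangles) libraries, for 69 of the 73 members (vertical axis) with a peak in all 4, ordered by mean Control percentile. Most members lie above 90%, libraries of both genotypes interleave on most lines, and Rpl6, Rpl4 and Rpl37a lie lowest.

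Among the tallest peaks by mean Control percentile were those of Rps19, Rps21, Rpl15 and Rpl27. Rps19, at chr7:24884371-24889806 and known for its mutation in Diamond-Blackfan anaemia, had folds of 197 and 159 in Control and 202 and 185 in TRF2KO. Rps21 had nearly the same values, 195 and 159 in Control and 203 and 185 in TRF2KO. Rpl15, a large subunit gene that shares its start region with Nkiras1 on the opposite strand, followed with 178 and 157 in Control and 190 and 183 in TRF2KO. In these 3 genes the Control 2 fold was the lowest, as it was for the median of the members and of all genes. Rpl27 had folds of 166 and 136 in Control and 173 and 160 in TRF2KO. Within a library these 4 peaks ranked above at least 99.4% of the list.

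The lowest mean Control percentiles by the gene record were those of Rps24, Rpl3, Rpl6, Rpl4 and Rpl37a, and the first 2 turned on which start was used. The gene record of Rpl3, the large subunit protein next to the peptidyl transferase centre, begins 8462 bp upstream of its principal start. The peak near the record had folds of 17.3 and 16.2 in Control and 17.6 and 14.8 in TRF2KO, and that at the principal start 80.3 and 66.4 in Control and 78.5 and 66.5 in TRF2KO. For Rps24 the distance was 3593 bp, and folds of 16.3 to 17.6 near the record compared with 47.9 to 59.5 at the principal start. In all, 6 members had a principal start more than 1 kb from the start of the record (Rps2, Rpl18, Rps14, Rpl3, Rps24 and Rpl17), and 56 had both at the same base. Rpl6, Rpl4 and Rpl37a remained lowest at the principal start. Rpl6 had folds of 24.9 and 22.1 in Control and 28.8 and 22.2 in TRF2KO. The summit at Rpl4 lay upstream, at -376 to -436 bp from its start, and Zwilch begins within 1 kb on the opposite strand.

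Of the other members followed as examples, Rplp0, the base of the ribosomal stalk, had folds of 127 and 113 in Control and 142 and 124 in TRF2KO. Its partners Rplp1 and Rplp2, which form the flexible arms of the stalk, were lower. Rplp1 had 71.6 and 64.2 in Control and 79.8 and 69.0 in TRF2KO. Rplp2 had 78.2 and 60.1 in Control and 70.9 and 68.8 in TRF2KO. Rpsa, which also encodes the laminin receptor protein, had 81.7 and 68.9 in Control and 91.0 and 80.8 in TRF2KO. Rps6, the substrate of S6 kinase, had 92.7 and 70.9 in Control and 88.1 and 81.7 in TRF2KO. Rpl5 and Rpl11 join the 5S RNA and restrain Mdm2 when free of the ribosome. Their folds were 41.9 and 38.2 for Rpl5 and 74.6 and 61.9 for Rpl11 in Control, and 45.1 and 42.0 and 76.8 and 74.2 in TRF2KO. In Rplp0, Rplp1, Rpsa, Rps6 and Rpl11 the folds of the genotypes overlapped, and in Rpl5 the lower TRF2KO fold lay just above the higher Control fold, while its percentiles overlapped.

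ATAC summits lay close to the principal starts. With negative values upstream, the median summit in Control 1 was at -32 bp from the start (quartiles -86 and 17 bp), and 55 of 73 members (75.3%) had it within 100 bp. Over all genes with 4 peaks the median was -39 bp and 49.8% lay within 100 bp. The share within 100 bp was 72.6% to 75.3% of members in the 4 libraries and 49.8% to 51.7% of all genes. At Rps19, whose peak was 1656 bp wide, the summit was called at -549 bp in Control 1 and at -225 bp in the other 3 libraries, and at Rps21 it was at -123 or -124 bp in all 4. At Rps10 the peak reached into the 1 kb window while its summit lay 1312 bp downstream. Peaks of members at the gene record had median widths of 1378 and 1391 bp (Control) and of 1348 and 1263 bp (TRF2KO). Means were 1385 ± 9.19 (SD, n = 2) and 1306 ± 60.1 (SD, n = 2), a difference of -79 bp (exact permutation test, two-sided, p = 0.3333, the smallest that 2 against 2 libraries allow). Over all genes with 4 peaks the same difference was -72.5 bp.

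**Figure D2:**
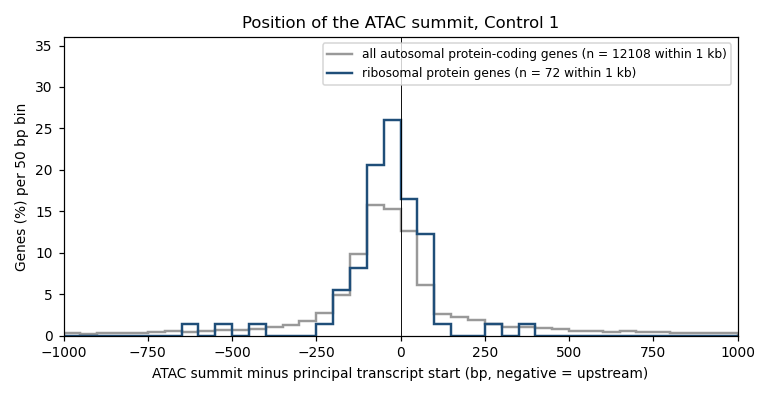
Distance of the ATAC summit from the principal transcript start in Control 1 (horizontal axis, bp, negative values upstream), as the percent of genes per 50 bp bin (vertical axis), for ribosomal protein genes (blue) and all autosomal protein-coding genes (grey) with a peak in all 4 ATAC libraries. Both curves peak just upstream of 0, and that of the ribosomal protein genes is narrower, with 75.3% against 49.8% of summits within 100 bp.

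Several members host small nucleolar RNAs in their introns, which guide the modification of ribosomal RNA. The 27 hosts, 25 of them with 4 peaks, had a median mean Control percentile of 94.9%, and the 49 members without such an RNA one of 94.0%. A start of another gene lay within 1 kb on the opposite strand of 18 members. Rps2 and Rpl3l start 9704 bp apart. No 2 members shared a Control 1 peak.

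Genes that work with the members were open as well. All 11 ribosomal protein genes with other symbols or on the X chromosome (among them Rack1, Fau, Rpl10 and Rps4x) had a start peak in all 4 libraries, with a median mean Control percentile of 94.97%. Rps4x, at folds of 20.7 to 28.8, was the lowest of them. The 48 genes of ribosome assembly, such as Ncl and Npm1 of the nucleolus, were all open in all 4, with a median of 92.2%, and so were all 6 elongation factor genes, at 93.8%. Of 78 nuclear genes for mitochondrial ribosomal proteins, 77 were open, with a lower median of 88.2%, near the 89.3% of all genes with 4 peaks.

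TRF2 peaks were far weaker than ATAC peaks. Within 1 kb of the gene record's start, 23 of 76 members (30.3%, interval 20.2 to 41.9) had a peak in both TRF2 libraries against 23.3% of all autosomal protein-coding genes, 42 (55.3%) had one in at least 1 against 37.8%, and 34 had none. In the IgG library 0 of 76 members had a peak (interval 0 to 4.74), against 0.101% of all genes. The pileup at the summit, recovered from fold and p, was 5 to 22 fragments (median 10) at the 32 members with a peak in TRF2 1 (42.1% against 29.8% of all genes) and 5 to 29 (median 9) at the 33 in TRF2 2 (43.4% against 31.3%). ATAC summits of members held a median of 303 to 363. Intervals on shares cover counting only. Of the 42 members with a TRF2 peak, 19 had it in 1 library, 9 in TRF2 1 and 10 in TRF2 2, so a peak found in one library was absent from the other list in nearly as many members as it was shared.

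Rpl15 had the highest mean TRF2 fold, at 10.7 and 14.7 in the 2 libraries from summits of 22 and 29 fragments. Rps23, a small subunit gene of the decoding centre, followed at 7.54 and 12.4, and Rps29 at 8.71 and 8.11. Rpl37 had folds of 6.496 and 10.2, and Rps16, at the ribosome's P site, 7.49 and 9.19. Rps21 had 6.79 and 8.31, Rps13 had 7.57 and 7.16, and Rpl27 had 5.01 and 8.71. Over the members with a peak the median fold was 6.04 in TRF2 1 and 6.36 in TRF2 2, and over all genes with a start peak it was 6.12 and 6.37. Rps19 had 7.11 and 6.58, Rpl5 had 7.03 and 6.52, and Rplp0 had 5.24 and 4.67. Rplp1 and Rps27l had a peak in TRF2 1 only, and Rpsa and Rplp2 in TRF2 2 only. Rps6 and Rpl11 had none in either. Rpl3 had none near its gene record, and at its principal start it had one in TRF2 2 only, with a fold of 7.13 and a summit 130 bp downstream.

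**Figure D3:**
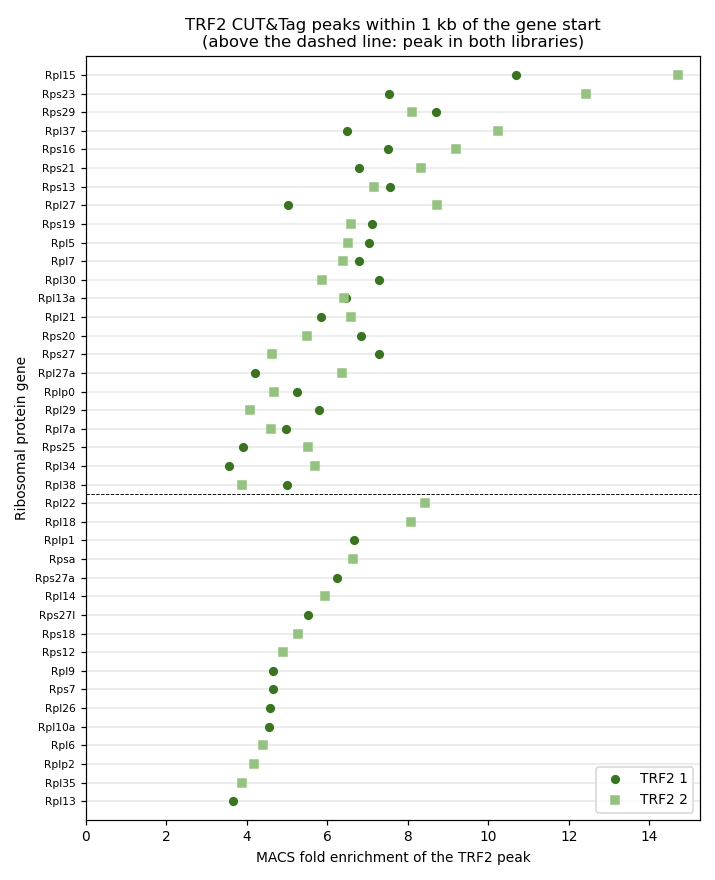
MACS fold enrichment (horizontal axis) of the TRF2 CUT&Tag peak within 1 kb of the gene start in TRF2 1 (circles) and TRF2 2 (squares) for 40 of the 42 members (vertical axis) with a peak in at least 1 library. The 23 members above the dashed line have a peak in both, led by Rpl15 at 10.7 and 14.7, and a missing symbol means no peak.

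Members with TRF2 peaks had the taller ATAC peaks, as did other genes. In each band of ATAC fold percentile, the members' share with TRF2 peaks in both libraries lay below the background share. The lower bands held few members. The median of the mean Control percentile was 96.6% in the 23 members with a TRF2 peak in both libraries, 94.4% in the 19 with 1 and 91.8% in the 29 open members with none. By mean Control percentile, 17 of 30 members at 95 and over (56.7%, interval 37.4 to 74.5) had a TRF2 peak in both libraries, against 74.3% of all genes in that band. From 90 to 95 it was 4 of 27 (14.8%, interval 4.19 to 33.7) against 44.9%, and from 80 to 90 it was 2 of 11 (18.2%, interval 2.28 to 51.8) against 24.2%. None of the 3 members under 80 had one, against 7.2%. The intervals cover counting only, treat members as independent and were not adjusted for the number of bands, so they are not a test. Counting a peak in either library, the members' shares were 24 of 30 (80%, interval 61.4 to 92.3) against 90.1% at 95 and over, 14 of 27 (51.9%, interval 31.9 to 71.3) against 73.7% from 90 to 95, 3 of 11 (27.3%, interval 6.02 to 61.0) against 55.2% from 80 to 90, and 1 of 3 (33.3%) against 25.8% under 80. On that count the members' share lay above the background under 80 and below it in the other bands. At the principal start the 4 shares for both libraries were 18 of 32 (56.3%, interval 37.7 to 73.6) against 73.9%, 4 of 29 (13.8%) against 44.9%, 2 of 11 (18.2%) against 24% and 0 of 1 against 7.31%, from the highest band down. Base composition moved with these counts. In the 300 bases around the record's start, members with a mean Control percentile of at least 90 had a median GC content of 56.3% against 61.7% of all such genes. Open members at any percentile had 58.7% with a TRF2 peak in both libraries and 54.3% with none. All genes with a mean Control percentile of at least 90 had 62.7% with TRF2 in both and 58.3% with none. These sets thus differ in accessibility as well. The part of base composition in the TRF2 counts was not tested.

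**Figure D4:**
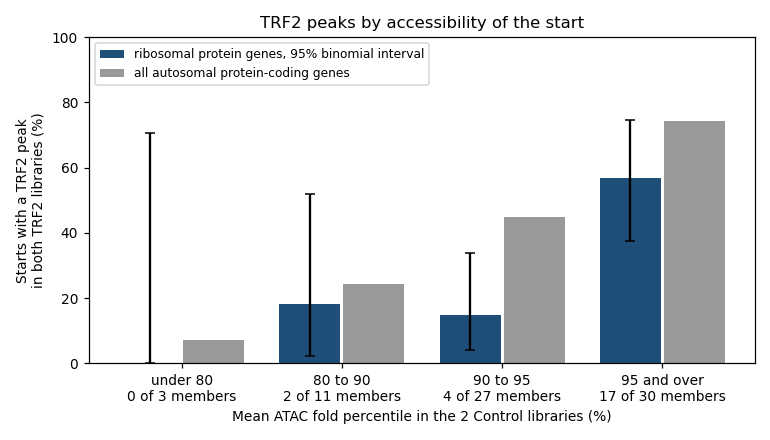
Percent of gene starts with a TRF2 peak in both TRF2 libraries (vertical axis) by band of the mean ATAC fold percentile in the 2 Control libraries (horizontal axis), for ribosomal protein genes (blue, with 95% exact binomial intervals and counts under each band) and all autosomal protein-coding genes (grey). The members' bars lie below the grey bars in all 4 bands, with the widest gap from 90 to 95, at 14.8% against 44.9%. The intervals cover counting only and are not a test.

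TRF2 summits lay near the ATAC summits. At members with both peaks the median distance to the Control 1 summit was 71.5 bp in TRF2 1 (n = 32) and 75 bp in TRF2 2 (n = 33), and 87.5% and 90.9% lay within 200 bp, against 76.2% and 79.3% over all genes. TRF2 and ATAC libraries came from different states of the muscle, after injury and without it. Among related genes, TRF2 peaks in both libraries were at 4 of 11 ribosomal protein genes with other symbols (36.4%), 22 of 48 assembly genes (45.8%), 3 of 6 elongation factor genes (50%) and 28 of 78 mitochondrial ribosomal protein genes (35.9%). The share was 37.5% of all genes open in the 4 ATAC libraries and 23 of 71 (32.4%) of such members. Among members they were at 14 of 46 large and 9 of 30 small subunit genes, and at 10 of 27 hosts of small nucleolar RNAs and 13 of 49 others.

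A G4 pattern, meaning that 4 G runs, each 3 or longer, follow one another with 1 to 7 bases between neighbours on one strand or the other, was found in 8 of the 23 regions called in both TRF2 libraries at members (34.8%, interval 16.4 to 57.3), against 45.8% of 4075 such regions at all autosomal protein-coding starts. The regions were at Rpl7, Rpl27, Rpl38, Rplp0, Rps19, Rps21, Rps23 and Rps25. No member region held 3 telomeric repeats in a row. The shortest match is shown for members discussed above, with G runs in capitals, on the strand that carries the G bases. A base between runs could itself be G, so the long first run at Rps23 was read as more than 1 run. The Rps19 match is centred at -87 bp from the principal start and that of Rps23 at -95 bp, while those of Rpl27, Rps21 and Rplp0 are centred 56, 109 and 134 bp downstream. Each lies inside the TRF2 region but not always near its summits. In TRF2 1 and TRF2 2 the summits lay at -321 and -280 bp from the principal start at Rps19. They lay at -55 and -116 bp at Rps23, 3 and -59 bp at Rpl27, -123 and -34 bp at Rps21, and 73 and -1 bp at Rplp0. A match does not show that the structure forms.
Rps19, minus strand, chr7:24884614-24884641: GGGaaaGGGaacgacGGGGtttcccGGG
Rps23, plus strand, chr13:90922855-90922872: GGGGGGGtGGGttgaGGG
Rpl27, plus strand, chr11:101442342-101442367: GGGcatggctGGGcctGGGaggcGGG
Rps21, plus strand, chr2:180257478-180257495: GGGccGGGctGGGccGGG
Rplp0, plus strand, chr5:115559591-115559612: GGGtGGGagcgatGGGctcGGG

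Rpl15, with the highest TRF2 folds, and Rps29, Rpl37, Rps16 and Rps13 had no G4 match in their TRF2 regions. Loops of up to 12 bases gave 12 of 23 regions (52.2%) against 67.4%.

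The ATAC libraries ask whether accessibility at these starts differed after loss of TRF2. Over the 71 members with 4 peaks, the library medians of the fold percentile averaged 94.4% ± 0.578 (SD, n = 2) in Control and 93.6% ± 0.390 (SD, n = 2) in TRF2KO. The difference was -0.732 percentage points (exact permutation test, two-sided, p = 0.3333), and over all genes with 4 peaks it was -0.430. That p is the smallest possible here, so the design could not pass a threshold of 0.05. Differences between libraries of one genotype were of the same size. The median absolute difference of a member's percentile was 0.549 between the 2 Control and 0.391 between the 2 TRF2KO libraries, and 0.330 to 0.928 across genotypes, and the largest 2 of these involve Control 2. In bulk chromatin, a lower peak in every cell and an open start in fewer cells cannot be told apart.

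The count of members that moved depended on the scale. By percentile, 25 of 71 members were lower in both TRF2KO than in both Control libraries, 35.2% against 28.6% of all genes with 4 peaks, and 6 were higher, 8.45% against 9.13%. The percentile rises with the length of the list, and both Control lists were longer than both TRF2KO lists. They held 89160 and 100521 peaks in Control and 84776 and 84102 in TRF2KO, with Control 2 the longest. By position counted from the top of the list, 4 members were lower (5.63% against 12.4%) and 21 higher (29.6% against 39%). On log2 fold centred on the median of all gene starts in each library, 16 were lower (22.5% against 21.8%) and 13 higher (18.3% against 24%). On that scale the difference of library medians was -0.04 for members (exact permutation p = 0.3333), where all genes are at 0 by construction. The median of the members' own differences was 0.01, as for all genes (0.01), with 5th and 95th percentiles of -0.15 and 0.17 for members and -0.37 and 0.25 for all genes. The median absolute difference within genotypes was 0.08 for members and 0.10 for all genes. No split between lower and higher members held on all 3 scales. Rps14 and Rpl30 were lower on all 3 scales, 2 of 71 members (2.82%) against 10.1% of all genes. On all 3, 6 of 71 members were higher (8.45% against 8.23%), among them Rps23, Rpl21, Rps15 and Rpl31.

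The largest falls in percentile among members whose genotypes did not overlap were at Rps14, Rpl37a, Rpl4 and Rpl7. At Rps14, which is lost in the 5q deletion of human myelodysplasia, the percentiles were 88.2 and 89.0 in Control and 85.0 and 82.7 in TRF2KO, with a centred log2 difference of -0.44. That peak, 3608 to 6187 bp wide, lies at a gene record 27498 bp from the principal start, where the percentiles were 95.2 and 95.5 in Control and 94.2 and 94.3 in TRF2KO. At Rpl37a they were 81.3 and 81.5 in Control and 79.1 and 75.2 in TRF2KO, from folds of 30.8, 23.8, 26.8 and 20.4, with a centred difference of -0.31. At Rpl4 they were 79.9 and 82.3 in Control and 79.4 and 78.2 in TRF2KO (centred -0.17), and at Rpl7 92.1 and 94.8 against 91.9 and 91.8 (centred -0.15). For Rpl4 and Rpl7 the nearest values of the genotypes were closer to each other than the 2 Control libraries were. For Rpl37a the nearest values, 81.3 and 79.1, were closer to each other than the 2 TRF2KO libraries were. Rps23, Rpl21 and Rps15 were among the largest rises. Rps23 had 90.3 and 90.8 in Control and 91.6 and 92.0 in TRF2KO (centred 0.21), from folds of 55.2, 45.7, 63.1 and 61.5. Rpl21 had 95.2 and 94.9 against 95.7 and 95.8 (centred 0.18), and Rps15 had 94.2 and 95.05 against 95.3 and 95.1 (centred 0.16).

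**Figure D5:**
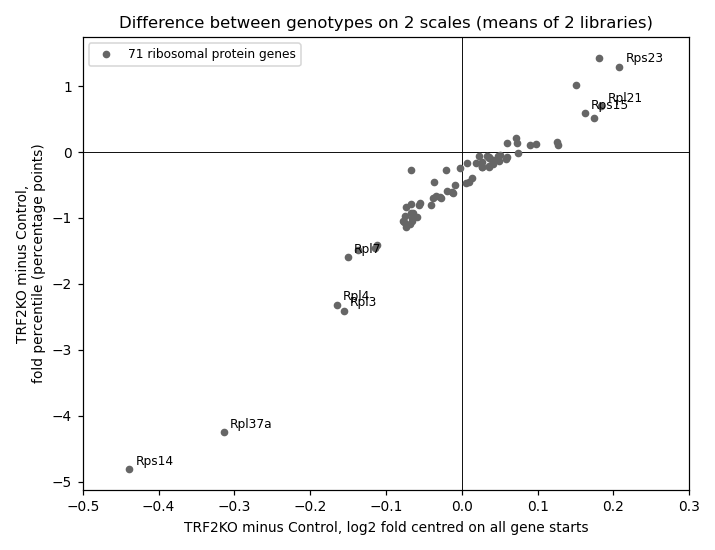
TRF2KO minus Control for the 71 members with an ATAC peak in all 4 libraries, as centred log2 fold (horizontal axis) and as fold percentile in percentage points (vertical axis), each from means of 2 libraries. Rps14 and Rpl37a lie lowest at -0.44 and -0.31, and most percentile differences are below 0 while the log2 values spread on both sides. Points use the peak near the start of the gene record, which for Rps14 lies 27498 bp from the principal start.

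Members with and without TRF2 peaks were also set side by side. The median centred log2 difference between genotypes was 0.03 in the 23 members with a TRF2 peak in both libraries, 0.01 in the 19 with 1 and -0.03 in the 29 with none. The same medians over all genes were 0.03 (n = 4831), 0.01 (n = 2913) and -0.04 (n = 5144). By percentile, 6 of 23 (26.1%), 8 of 19 (42.1%) and 11 of 29 (37.9%) members of these groups were lower in both TRF2KO libraries, against 28.9%, 27.5% and 29.0% of all genes in the same groups. At a typical single member, 2 libraries of one genotype differed by 0.08. That is the spread of 1 gene and not of a median over a group, so it does not measure these medians. Whether the groups differ was not tested.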

How the data were processed

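Per the labels and methods, the authors aligned reads to mm10 (Bowtie2), removed duplicates (Picard) and reads that align to several places, and called peaks per library with MACS3 (3.0.2 for ATAC, 3.0.0 for CUT&Tag), SEACR and GoPeaks. MACS settings, any use of IgG as control and any shift of ATAC reads are not given in the sources used here. The deposited MACS fold is a ratio of pileup to background at the summit, deposited with −log10 p and −log10 q. SEACR signal was deposited from normalized coverage. The authors' pooled consensus lists were not used. Read totals are not given in the sources used here. Pileups were solved from fold and p where −log10 p was under 200, and for 99.8% to 100% of such peaks a whole number resulted.

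Starts came from GENCODE M21 and sequence from RefSeq GRCm38, which shares mm10 coordinates. A gene was assigned the peak of highest fold that overlaps, by at least 1 bp, the window of 1 kb on each side of its start. The principal start is that of the coding transcript with the best APPRIS rank, then CCDS, then the lowest number. Groups came from sample titles. Comparisons between genotypes used the exact two-sided permutation test over 2 against 2 libraries, with 6 assignments. Steps were tested on simulated peak lists. Named members are the 5 highest and 5 lowest in Control, those without a peak in a library, the 8 highest TRF2 folds, the 4 largest falls and rises without overlap, and fixed examples; Rpl30, Rpl31, Rpl18, Rps10, Rpl38 and Rps25 were named after their values were seen. A few members are counted but not reported here by name. Members and gene lists were chosen with earlier results of these data known. Analyses used Python 3.11.15, pandas 2.3.3, NumPy 2.4.6, SciPy 1.17.1 and pysam 0.24.0.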

Additional observations from a re-analysis of the deposited data

How the results depend on the processing

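Of 83 alternatives, 65 kept their result's direction and side of the threshold or stayed within its limits. The number of members open in all 4 ATAC libraries stayed between 70 and 73 of 76 under every window, caller, start and left-out library tried. The 23 members with a TRF2 peak in both libraries became 11 at a −log10 q of at least 5 (13.0% of all genes) and 42 for either library, and a single library gave 32 or 33. Ranking by SEACR maximum signal reversed the median percentile difference, to 2.33 (exact permutation p = 0.667), and changed the members lower and higher in TRF2KO to 2 (2.82% against 4.84% of all genes) and 14 (19.7% against 34.3%). The cause was not tested. Position from the top of the list, chosen after the data were seen like centred log2 fold and the principal start, gave 4 lower and 21 higher, and centred log2 fold 16 lower and 13 higher. Leaving out each ATAC library gave 29 to 51 lower and 7 to 14 higher. The smallest counts were 29 lower without Control 2 (40.8% against 32.2% of all genes) and 7 higher without Control 1 (9.86% against 11.4%). The lower count was 51 without Control 1 (71.8% against 66.9% of all genes) and 49 without TRF2KO 1 (69.0% against 44.3%), and the higher count 14 without Control 2 (19.7% against 42.8%) and 13 without TRF2KO 2 (18.3% against 21.9%), where fewer libraries must not overlap. The median summit offset of -17.5 bp became -34.5 at the nearest annotated transcript start and -34.3 at the principal start. G4 matches fell from 34.8% of 23 regions to 15.2% of 46 windows within 100 bp of TRF2 summits. Over all genes they fell from 45.8% of 4075 regions to 22.6% of 8044 windows. These windows are smaller, and the summits of the TRF2 libraries at a start are counted separately. Pyrimidine runs rose to 47.4% with a minimum of 6 bases and to 86.8% with any transcript start.

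The replicate block, pairing libraries by number, gave a median percentile difference of -0.447 (sign-flip permutation p = 0.5, the smallest possible), a width difference of -65.5 bp, 34 members lower (47.9% against 36.8% of all genes) and 6 higher (8.45% against 13.5%). The numbers are shared names only: same-numbered deviations correlated at r = -0.0308 across all genes and -0.217 across members, which are not independent replicates. TRF2 peaks rest on 5 to 29 fragments at members' summits.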
